A study of Mus musculus with 3 samples.

Results

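The genes of the constitutive proteasome were described in RNA sequencing libraries of splenic macrophages from mice with acute myeloid leukemia. They were chosen by symbol: a mouse gene beginning with Psma, Psmb, Psmc or Psmd and a digit, without the inducible subunit genes Psmb8, Psmb9 and Psmb10 and without pseudogenes, at 1 FPKM or more in any library. FPKM, the authors' unit, is the number of fragments per kilobase of gene length, scaled to the mapped fragments of the library. The rule gave 36 of the 17615 genes listed in any library. Psma8, a testis-specific alpha subunit gene, was the 1 candidate left out, at 0.48 FPKM in the mM-CSF library, 0.86 in the sM-CSF library and 0.65 in the control library, and Psmb11 was the member nearest above the minimum, at 1.91, 2.57 and 2.55 FPKM in the same order. Of the 36 members, 14 encode subunits of the core, 17 encode subunits of the cap, 3 (Psmd5, Psmd9 and Psmd10) encode chaperones that assemble the base of the cap, and Psmb11 encodes a core subunit of the thymus. Psmc3ip meets the rule by its symbol only, since it encodes a recombination factor and no proteasome subunit.

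All groups were C57BL/6J mice of 6 to 8 weeks that received 800000 leukemia cells carrying GFP and BFP, without irradiation. The groups differ in the form of M-CSF, the macrophage growth factor, that was high in the transplanted cells: mM-CSF, sM-CSF, or neither form (control). The labels do not spell out these prefixes. On day 18, spleen cells negative for GR1, intermediate for CD115 and positive for F4/80 were sorted as macrophages, and 1 library was made per group. The number of mice behind a library is not given, the groups have no replicates, and no difference below has a replicate check or a p-value.

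The proteasome is the protease that degrades proteins marked with ubiquitin. Its core is a barrel of alpha rings, which gate the entrance, around beta rings, of which a few subunits carry the cutting sites. The cap sits on the barrel: its base holds a ring of ATPases that unfold the substrate, and its lid removes the ubiquitin chain. In immune cells interferon induces other catalytic subunits that replace the constitutive ones and favour peptides for MHC class I.

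The library totals were 8.57e+06 estimated counts (mM-CSF), 8.94e+06 (sM-CSF) and 9.09e+06 (control). Markers of macrophages were present in every library, with summed levels over 8 genes of 1053 FPKM in the mM-CSF, 758 in the sM-CSF and 1030 in the control library, and no marker gene of the lists below was at 0. Transcripts of other cells were abundant and differed between libraries. The 8 plasma cell genes summed to 4447, 1494 and 1438 FPKM in the mM-CSF, sM-CSF and control libraries, and the 9 granulocyte and granule genes to 1038, 195 and 185 FPKM. The sums were 2687, 2471 and 1338 FPKM for 7 B cell genes, 754, 573 and 327 FPKM for 8 T cell genes, and 3908, 3481 and 4821 FPKM for the 8 matched of 9 erythroid genes, in the same order. Single genes carried much of some sums: Jchain had 3301, 1072 and 1008 FPKM, Cd79a 1117, 958 and 468, and Cd79b 918, 634 and 322. Of the 8 plasma cell genes 6 had a higher level in the mM-CSF than in the control library. Irf4 and Prdm1 were lower, at 28.8 and 6.14 FPKM against 35.2 and 7.10. Of the 7 B cell genes, 2 had a higher level in the mM-CSF than in the sM-CSF library.

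The promoters of 4 members are shown because they hold letters bound by factors tied to proteasome genes and because these genes lie at the ends of the range of differences described later. Psmb6 (NCBI gene 19175) and Psmb5 (19173) encode catalytic core subunits and were among the highest in the mM-CSF library relative to the control, whereas Psmc6 (67089), a base ATPase gene, and Psmd11 (69077), a lid gene, had the lowest differences among the core and cap genes. Capitals mark the letters TGACNNNGC, the antioxidant response element bound by Nfe2l1 and Nfe2l2 with small Maf partners, and the letters CCGGAAG, the center of sites of ETS factors, on either strand. The sequences are from RefSeq (GRCm38.p6), 5′ to 3′ on the strand of the gene, and lie upstream of the annotated start. The 250 bases of Psmb6, Psmb5 and Psmd11 end 1 base before the start, and the 200 bases of Psmc6 end 51 bases before it. Psmb6 is shown on the plus strand at chr11:70525107-70525356 and Psmb5 on the minus strand at chr14:54617996-54618245, both with the response element as written. Psmc6 is on the plus strand at chr14:45329574-45329773, with the response element on the opposite strand and then the ETS letters as written. Psmd11 is on the plus strand at chr11:80428365-80428614, with the ETS letters on the opposite strand.
Psmb6: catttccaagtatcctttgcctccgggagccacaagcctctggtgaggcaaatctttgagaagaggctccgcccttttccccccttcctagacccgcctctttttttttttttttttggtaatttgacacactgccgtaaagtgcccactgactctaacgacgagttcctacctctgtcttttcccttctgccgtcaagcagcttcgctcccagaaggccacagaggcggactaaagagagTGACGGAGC
Psmb5: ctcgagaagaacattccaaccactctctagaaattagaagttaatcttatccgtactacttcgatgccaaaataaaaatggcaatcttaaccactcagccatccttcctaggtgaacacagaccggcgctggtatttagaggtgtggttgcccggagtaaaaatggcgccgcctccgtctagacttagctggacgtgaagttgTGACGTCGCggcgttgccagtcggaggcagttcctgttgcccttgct
Psmc6: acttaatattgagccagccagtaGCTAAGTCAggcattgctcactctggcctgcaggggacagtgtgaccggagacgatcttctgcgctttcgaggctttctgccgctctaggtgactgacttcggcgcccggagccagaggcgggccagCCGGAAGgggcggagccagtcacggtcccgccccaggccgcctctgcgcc
Psmd11: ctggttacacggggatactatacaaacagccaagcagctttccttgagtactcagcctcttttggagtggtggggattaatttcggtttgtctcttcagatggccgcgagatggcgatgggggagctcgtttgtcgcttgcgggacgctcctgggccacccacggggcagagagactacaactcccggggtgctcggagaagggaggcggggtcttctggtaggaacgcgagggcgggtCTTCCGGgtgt

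RefSeq promoter windows of 300 bases, of which 50 lie after the start, were found for 30 of the 36 members, in 32 windows. TGACNNNGC was in 5 of the 32 windows (15.6%), those of Psmb5, Psmb6, Psmc6, Psmd9 and Psmd12, against 12.4% of all 32851 windows. CCGGAAG was in 12 windows (37.5%), against 8.86% of all windows, and these belonged to 9 of 14 cap genes and 1 of 11 core genes with a window, and to Psmc3ip. The CCAAT box was in 13 windows (40.6%, against 37.4% of all) and the GC box GGGCGG in 18 (56.2%, against 35.7%). Both strands were searched, and none of the marked occurrences in the 4 sequences overlap. A match is a run of letters and not a measured site, and the response element stands in front of Psmb6 and of Psmc6 alike.

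**Figure D1:**
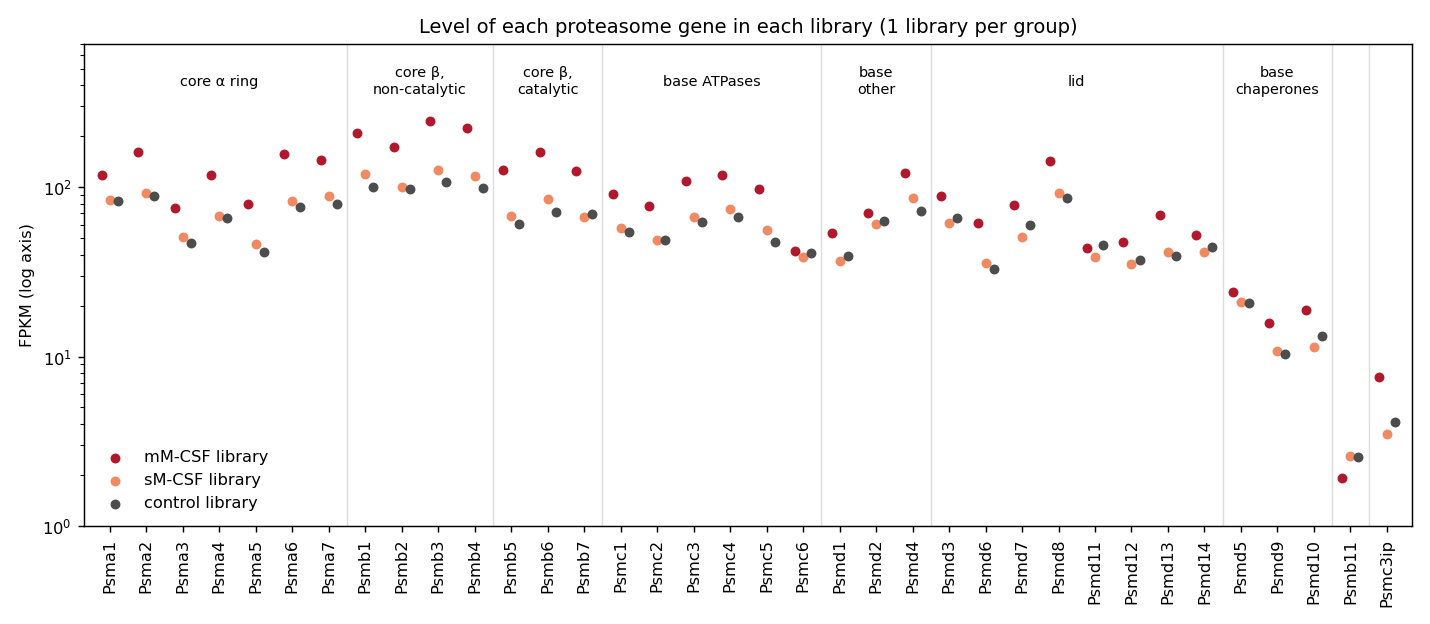
Level of each of the 36 members in the mM-CSF, sM-CSF and control libraries, in FPKM on a log axis, grouped by role, with 1 point per library. For 34 of 36 members the point of the mM-CSF library lies above that of the control library, with Psmd11 and Psmb11 as the exceptions, while the points of the sM-CSF and control libraries lie close together.

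Levels lay close together within the core and within the cap. In the control library the 14 core genes spanned 41.3 to 107 FPKM, 2.58-fold from lowest to highest, and the 17 cap genes 32.7 to 86.4 FPKM, 2.64-fold. In the mM-CSF library the core genes spanned 75.3 to 245 FPKM and the cap genes 42.3 to 142 FPKM. The median core gene was at 151, 84.6 and 77.6 FPKM in the mM-CSF, sM-CSF and control libraries, and the median cap gene at 77.7, 50.8 and 48.7 FPKM. The median core level was thus 1.94 times the median cap level in the mM-CSF library, 1.66 times in the sM-CSF library and 1.6 times in the control library. The 3 assembly chaperone genes were lower throughout, between 10.3 and 24.0 FPKM.

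The members took 0.459% of all estimated counts in the mM-CSF library (95% exact binomial interval 0.454 to 0.463%), 0.291% in the sM-CSF library (0.288 to 0.295%) and 0.280% in the control library (0.276 to 0.283%). These intervals, like all others here, cover counting error only, since reads without molecular identifiers are not independent molecules. On the scale of summed FPKM over all listed genes, the core genes took 0.339%, 0.238% and 0.240% in the mM-CSF, sM-CSF and control libraries, and the cap genes 0.218%, 0.185% and 0.200%. In bulk RNA of sorted cells, a different share of cells of a type and a different amount of RNA per cell cannot be told apart.

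The first comparison asks how proteasome genes in macrophages of mM-CSF leukemia stood relative to control leukemia. Core genes were higher: all 14 had a positive difference between the mM-CSF and control libraries of log2(FPKM + 1), with a median of 0.90, and 6 reached 2-fold. Cap genes followed with a lower median of 0.66, a positive difference in 16 of 17, and 1 at 2-fold. A gene is called higher or lower here when the difference is at least 1 in size and the higher library has at least 5 FPKM. By this rule 7 of the 35 members with that minimum (20%) were higher and 0 lower, whereas 8.97% of all 9789 genes were higher and 15.1% lower. With a smaller size of 1.5-fold, 23 of the 35 members (65.7%) were higher and 0 lower, against 21.6% and 27.4% of all genes. Of any size, 34 of the 36 members had a difference above 0, against 47.8% of all genes. The median over the 36 members was 0.74, and the median over all genes was -0.046.

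Among the alpha ring genes, Psma6 had the highest difference and Psma1 the lowest. Psma6 was at 157 FPKM in the mM-CSF, 83.2 in the sM-CSF and 75.8 in the control library. Its share of counts was 2.08-fold higher in the mM-CSF library than in the control (95% exact conditional interval 1.9 to 2.29). Psma2, the alpha gene with the highest level, was at 160, 92.5 and 88.1 FPKM in the same order. Psma1 was at 118, 84.3 and 82.9 FPKM, with a ratio of 1.43 (1.31 to 1.56) to the control. In each of these genes the mM-CSF library was the high one, and the sM-CSF and control libraries differed little.

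The non-catalytic beta subunits, which build the inner rings with the catalytic ones, had the highest levels of all members. Psmb3 was at 245, 125 and 107 FPKM in the mM-CSF, sM-CSF and control libraries, and its share of counts was 2.31-fold higher in mM-CSF than in control (2.11 to 2.53). Psmb4 was at 222, 116 and 98.9 FPKM (ratio 2.26, 2.08 to 2.46) and Psmb1 at 208, 119 and 100.4 FPKM (2.09, 1.93 to 2.26). All of these were called higher. Psmb2 was at 173, 100.4 and 97.8 FPKM, with a ratio of 1.78 (1.62 to 1.95), short of 2-fold.

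The catalytic subunits carry the caspase-like site (Psmb6), the trypsin-like site (Psmb7) and the chymotrypsin-like site (Psmb5). Psmb6 was at 161 FPKM in the mM-CSF, 84.8 in the sM-CSF and 70.9 in the control library, a 2.28-fold higher share of counts in the mM-CSF library than in the control (2.08 to 2.51). Psmb5 was at 127, 67.7 and 60.3 FPKM, a ratio of 2.12 (1.9 to 2.38). Psmb7 was at 125, 66.5 and 68.9 FPKM, a ratio of 1.82 (1.64 to 2.02). Psmb5 and Psmb6 were called higher and Psmb7 was not, and the interval of Psmb7 overlaps that of Psmb5.

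In the ATPase ring of the base, Psmc5 was the 1 cap gene called higher, at 97.4 FPKM in the mM-CSF, 55.8 in the sM-CSF and 47.1 in the control library, with a ratio of 2.08 (1.87 to 2.31) to the control. Psmc4, the ATPase gene with the highest level, was at 118, 74.8 and 66.7 FPKM. Psmc6 stood apart from its partners in the ring. It was at 42.3, 38.8 and 41.0 FPKM, and its ratio of 1.04 to the control has an interval (0.92 to 1.17) that includes 1, while the other 5 ATPase genes had differences between 0.66 and 1.03.

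The other base genes encode the scaffolds Psmd1 and Psmd2 and the ubiquitin receptor Psmd4. Psmd4 was at 122, 86.2 and 72.4 FPKM in the mM-CSF, sM-CSF and control libraries, a difference of 0.74 to the control, and Psmd2 at 69.9, 60.6 and 63.2 FPKM, a difference of 0.14. Psmd1 was at 53.3, 36.5 and 39.1 FPKM, a difference of 0.44. In the lid, Psmd8 had the highest level, at 142, 92.2 and 86.4 FPKM, and Psmd6 the highest difference, 0.89, at 61.5, 35.7 and 32.7 FPKM. Psmd11, a lid scaffold subunit gene, had the lowest, -0.06, at 43.8, 38.5 and 45.5 FPKM, with a ratio of 0.97 (0.87 to 1.08). Psmd14, which encodes the enzyme that cuts the ubiquitin chain off, was at 51.9, 41.6 and 44.4 FPKM, a difference of 0.22. Of the 8 lid genes none was called.

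The assembly chaperone genes Psmd5, Psmd9 and Psmd10 had differences of 0.20, 0.57 and 0.47 in mM-CSF over control. Psmd5 was the highest of them, at 24.0, 20.9 and 20.8 FPKM in the mM-CSF, sM-CSF and control libraries. Psmc3ip was at 7.58, 3.48 and 4.11 FPKM, and its ratio of 1.86 has a wide interval (1.21 to 2.88). Psmb11 differed by -0.29, and its ratio of 0.76 has an interval (0.55 to 1.04) that includes 1. The estimated counts of Psmb11, Psmd9 and Psma3 were not whole (within 0.005) in every library, as happens where reads are divided between genes, so their values are uncertain.

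**Figure D2:**
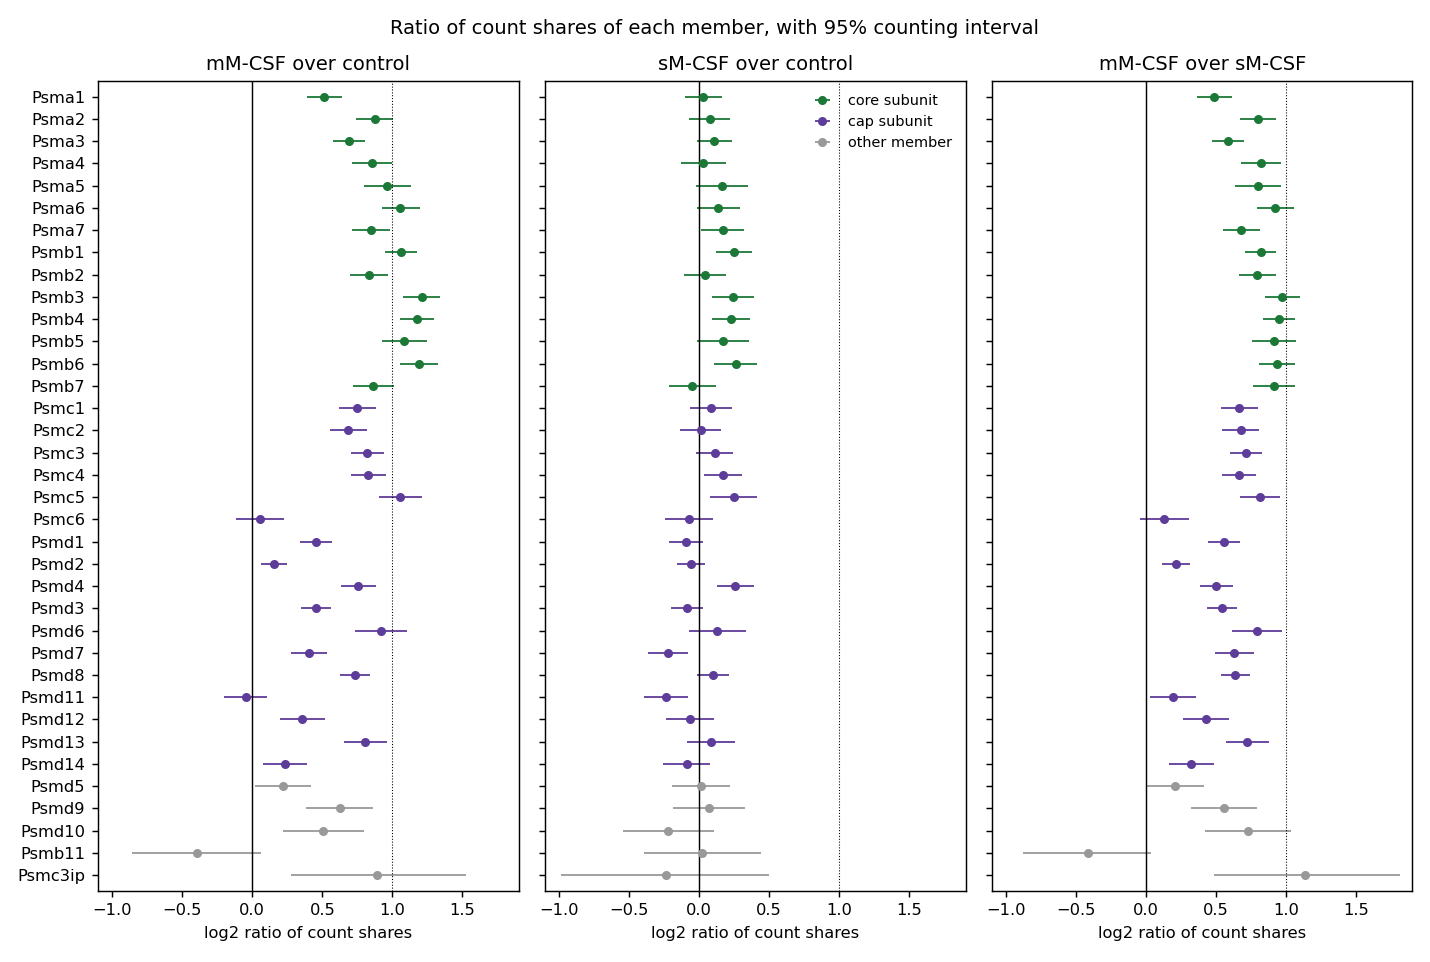
Ratio of the share of counts of each member between libraries, on a log2 scale, with its 95% exact conditional interval (counting error only), in the 3 comparisons. The dotted line marks 2-fold. In mM-CSF over control and mM-CSF over sM-CSF nearly all points lie right of 0, with Psmb11 left of it in both and Psmd11 in the first, and in sM-CSF over control the points lie around 0.

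The mM-CSF library also differed from the control along gene length, and proteasome genes are short. Across all 9789 genes the difference and the length had a Spearman's rho of -0.67, a description across genes of 2 libraries. The median length was 983 bases for core genes, 1564 bases for cap genes and 2645 bases over all genes. The median difference over all genes of a length, taken in 20 length bins, was 0.84 at the median core gene and 0.45 at the median cap gene. Within the 31 core and cap genes, which share libraries, rho with length was -0.82. When the all-gene trend was subtracted, the median over members was 0.23, with 27 of 36 members above 0, against 50.1% of all genes. No member then reached 2-fold, against 3.01% of all genes higher and 7.78% lower. At 1.5-fold, 2 members (Psmd1 and Psmd9) were higher and 0 lower, against 11.1% and 16.1% of all genes.

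The order of core and cap depended on this step. As deposited, the core median exceeded the cap median by 0.23, and 13 of 14 core genes lay above the cap median. With the trend removed, the core median was 0.18 and the cap median 0.29, a difference of -0.10, and 3 of 14 core genes lay above the cap median. The ranges overlapped on both scales. The longest core gene, Psma3 (2375 bases), whose values are uncertain, was at 75.3, 50.5 and 46.9 FPKM in the mM-CSF, sM-CSF and control libraries, a difference of 0.67 to the control that was 0.58 with the trend removed. The longest cap gene, Psmd1 (3256 bases), had 0.66 with the trend removed, the highest of the core and cap genes, and Psmd11 and Psmc6 had the lowest, -0.41 and -0.40.

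**Figure D3:**
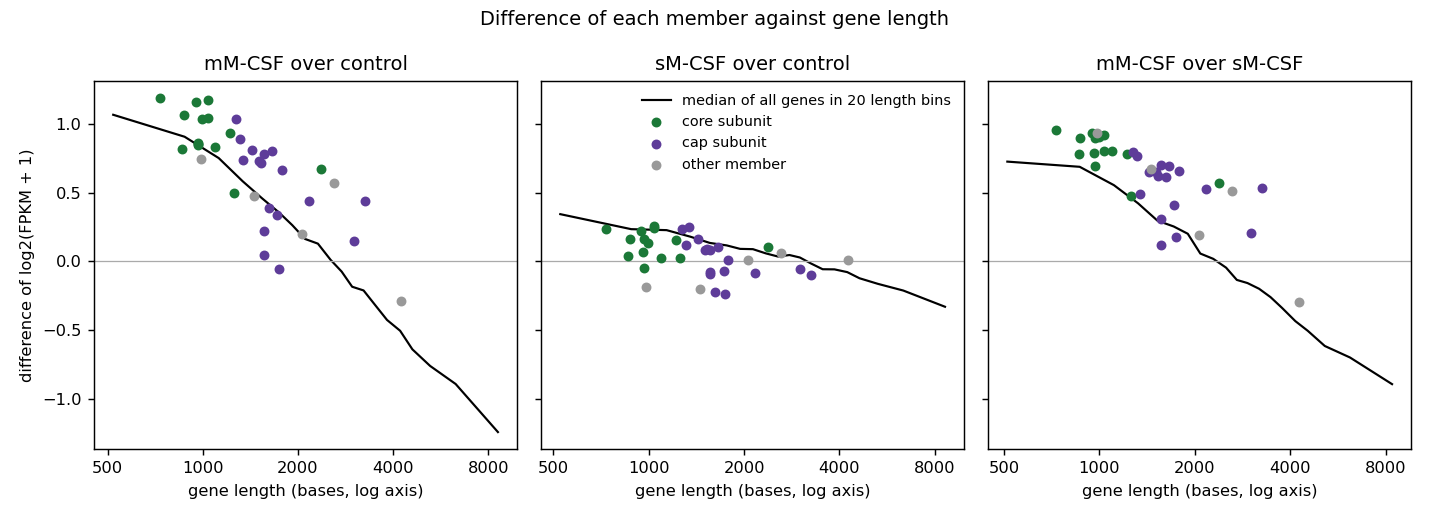
Difference of log2(FPKM + 1) of each member against gene length (log axis, bases) in the 3 comparisons, with the median of all genes in 20 length bins as a line. In mM-CSF over control the line goes from 1.07 in the shortest bin to -1.24 in the longest, and 27 of 36 members lie above it, while in sM-CSF over control 28 of 36 lie below it.

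Genes of nearly equal length can be set side by side, here a set chosen after their values were seen. Psmd13 (1563 bases), Psmc6 (1564 bases) and Psmd14 (1560 bases) are cap genes of this kind. Psmd13, a lid gene, was at 68.3, 41.6 and 39.3 FPKM in the mM-CSF, sM-CSF and control libraries. Its ratio between the mM-CSF and control libraries was 1.75 (1.57 to 1.95), against 1.18 (1.05 to 1.31) for Psmd14 and 1.04 (0.92 to 1.17) for Psmc6. The interval of Psmd13 does not overlap the other two.

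The second comparison asks the same of sM-CSF leukemia, and here proteasome genes differed little from the control. The median over members was 0.065, against 0.017 over all genes, and the differences ran from -0.24 (Psmd11) to 0.25 (Psmb6). Of the 34 members that reached 5 FPKM, 0 were called higher and 0 lower, against 0.785% and 1.63% of 9683 genes, and at 1.5-fold likewise 0 and 0, against 4.2% and 5.8%. The core genes had a median of 0.14, with 13 of 14 above 0, and the cap genes a median of 0.0075, with 9 of 17 above 0. Of all members, 25 of 36 were above 0, against 52% of all genes. The direction of the median over members turned with the processing: it was -0.075 with the libraries rescaled to TPM, which sum to the same total, and -0.075 with the length trend removed, where 28 of 36 members were below 0, against 50.2% of all genes. With the trend removed 0 members reached 2-fold, against 0.485% of all genes higher and 1.81% lower, and 0 reached 1.5-fold, against 2.5% and 5.53%. On that scale the core median was -0.069 and the cap median -0.080, a difference of 0.011. There 3 of 14 core genes and 3 of 17 cap genes were above 0.

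For some genes the counting interval of this small difference excluded 1. Psmb6 had a ratio of 1.2 (1.08 to 1.33) between the sM-CSF and control libraries, Psmb1 1.19 (1.09 to 1.3), Psmc5 1.19 (1.06 to 1.33) and Psmd4 1.19 (1.09 to 1.31). Their differences of 0.25, 0.24, 0.24 and 0.25 fell to 0.025, 0.012, 0.043 and 0.067 once the length trend was subtracted. On the other side, the lid genes Psmd11 and Psmd7 had 0.85 (0.76 to 0.95) and 0.86 (0.78 to 0.95), and differences of -0.35 each with the trend removed. In the lid list 3 of 8 genes were above 0 and the median was -0.078, which was -0.18 with the length trend removed. Psmb7, with 0.97 (0.86 to 1.09), was the 1 core gene with a ratio below 1.

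The third comparison sets mM-CSF against sM-CSF leukemia directly and shares a library with each of the others. All 31 core and cap genes had a positive difference, as had 35 of the 36 members against 45.5% of all genes, with a core median of 0.81 and a cap median of 0.61. The median over the 36 members was 0.66, against -0.078 over all genes. None of the 35 members at 5 FPKM reached 2-fold, against 3.79% of 9574 genes higher and 8.73% lower, but 23 (65.7%) were higher by 1.5-fold, against 15% of all genes, and 0 lower, against 22.1%. The highest difference was that of Psmb3, 0.96, with a ratio of 1.96 (1.8 to 2.14), and the lowest of a core or cap gene that of Psmc6, 0.12, with a ratio of 1.09 (0.97 to 1.23). With the length trend removed the median over members was 0.30 and 34 of 36 were above 0, against 50% of all genes, with Psmc6 (-0.17) and Psmd11 (-0.066) below. Then 0 members reached 2-fold, against 1.99% of all genes higher and 4.65% lower, and 2 were higher and 0 lower by 1.5-fold, against 8.35% and 11.2%. The core median exceeded the cap median by 0.19 as deposited and by -0.089 with the trend removed.

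**Figure D4:**
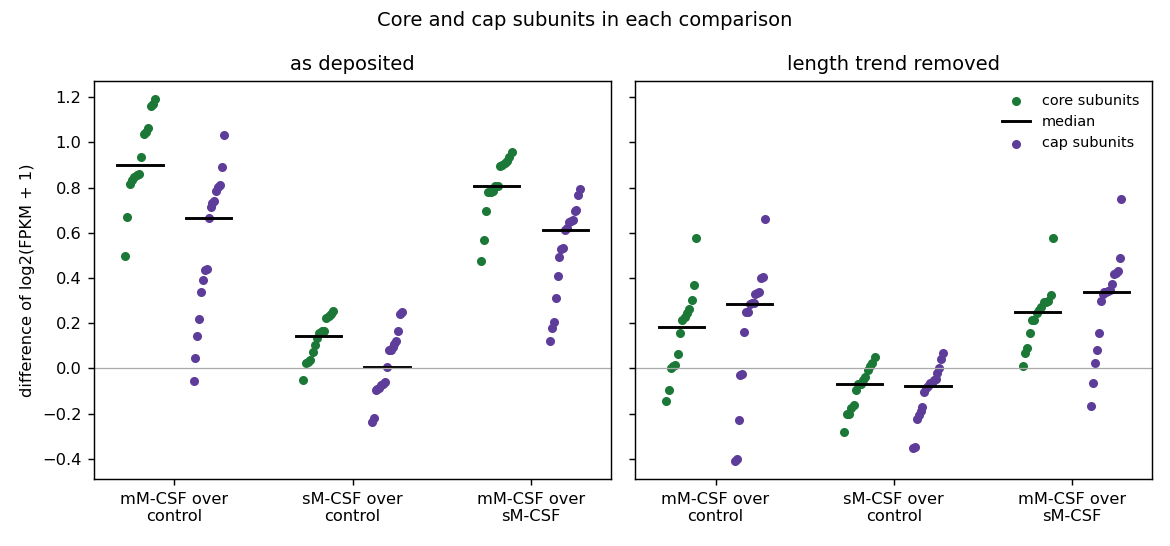
Differences of log2(FPKM + 1) of the 14 core and 17 cap genes in the 3 comparisons, as deposited (left) and with the length trend removed (right), 1 point per gene, with the median of each group as a bar. In mM-CSF over control the core bar stands above the cap bar as deposited (0.90 and 0.66) and below it with the trend removed (0.18 and 0.29).

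The scaling of the libraries set the level of these medians but not their distance from all genes. In TPM the median of all genes shifted by -0.45 for mM-CSF over control, by -0.14 for sM-CSF over control and by -0.31 for mM-CSF over sM-CSF. For mM-CSF over control, the member median minus the all-gene median was 0.79 as deposited, 0.80 in TPM, 0.79 with median-of-ratios and 0.79 with TMM scaling, and 0.23 with the length trend removed. For sM-CSF over control it was between 0.047 and 0.048 under these scalings and -0.074 with the length trend removed.

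Markers of other cells differed in each comparison. Of the 8 plasma cell genes 5 were called higher and 0 lower in mM-CSF over control (median difference 1.65), and of the 9 granulocyte and granule genes 7 and 0 (median difference 2.35). Of the 8 T cell genes 5 were called higher and 1 lower (median 1.24), of the 7 B cell genes 2 and 0 (median 0.44), and of the 8 erythroid genes 0 and 3 (median -0.83). Of all genes, 8.97% were called higher and 15.1% lower in this comparison. In sM-CSF over control none of the plasma cell or granulocyte and granule genes was called, and the medians were 0.092 and 0.12. There 3 T cell genes and 2 B cell genes were called higher and 0 lower (medians 0.89 and 0.89), and 3 erythroid genes lower and 0 higher (median -0.74). The shares of all genes were 0.785% higher and 1.63% lower. In mM-CSF over sM-CSF 6 plasma cell genes and 7 granulocyte and granule genes were called higher and 0 lower (medians 1.55 and 2.35). There 1 T cell gene was lower and 0 higher (median 0.29). No B cell or erythroid gene was called (medians -0.22 and -0.12), and 1 macrophage gene was higher (median 0.27). Of all genes, 3.79% were higher and 8.73% lower. The 8 macrophage genes had medians of 0.043 (mM-CSF over control) and -0.38 (sM-CSF over control). These calls and medians are as deposited. With the length trend removed, the mM-CSF over control medians were 0.955 (plasma cell), 1.42 (granulocyte and granule), 0.84 (T cell), 0.34 (B cell), -1.45 (erythroid) and 0.17 (macrophage). In sM-CSF over control they were -0.049, -0.11, 0.73, 0.77, -0.98 and -0.48 in the same order, and in mM-CSF over sM-CSF 1.11, 1.63, 0.068, -0.25, -0.48 and 0.47. The part of these cells in the levels of proteasome genes was not tested.

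The constitutive catalytic genes can be set against the inducible ones that take their places, as a ratio of FPKM within a library. No factor applied to a whole library alters this ratio, but the length trend can, because the genes of a pair differ in length. The ratio of Psmb6 to Psmb9 was 0.88 in the mM-CSF library, 0.59 in the sM-CSF library and 0.56 in the control library, 1.57-fold higher in mM-CSF than in control (exact conditional interval 1.38 to 1.78) and 1.05-fold in sM-CSF over control (0.91 to 1.2). The ratio of Psmb7 to Psmb10 was 0.79, 0.69 and 1.00 in the same libraries, 0.79 of the control value in mM-CSF (0.69 to 0.90) and 0.69 in sM-CSF (0.596 to 0.804). The ratio of Psmb5 to Psmb8 was 0.43, 0.38 and 0.42, with intervals that include 1 for mM-CSF over control (0.90 to 1.16) and for sM-CSF over control (0.79 to 1.05). The sites thus went in different directions, and in the mM-CSF and sM-CSF libraries each inducible gene had the higher level of its pair. Psmb9 (806 bases) is shorter than Psmb6 (1036 bases), and Psmb10 (1270 bases) and Psmb8 (1223 bases) are longer than Psmb7 (969 bases) and Psmb5 (871 bases). With the length trend removed, the mM-CSF over control difference was 0.37 for Psmb6 and -0.40 for Psmb9. It was 0.002 for Psmb7 and 0.56 for Psmb10, and 0.15 for Psmb5 and 0.37 for Psmb8. In sM-CSF over control these were 0.025 and -0.060, -0.28 and 0.28, and -0.071 and 0.094 in the same order.

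**Figure D5:**
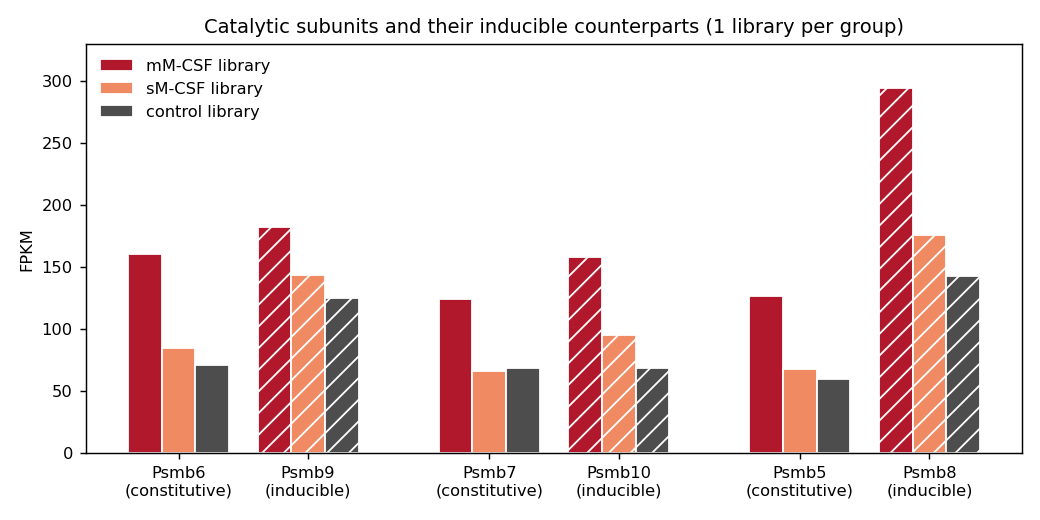
FPKM of the constitutive catalytic genes (plain bars) and their inducible counterparts (hatched bars) in the mM-CSF, sM-CSF and control libraries, 1 library per group. Psmb8 exceeded Psmb5 in every library, and Psmb7 and Psmb10 were level in the control library, at 68.9 and 68.7 FPKM.

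Other genes of the pathway lay on both sides of 0 between the mM-CSF and control libraries. The shares of all genes called in this comparison, 8.97% higher and 15.1% lower, are the background for each count of a list. Of 5 core assembly chaperone genes 2 were higher and 0 lower: Pomp, which matures the beta rings, at 205, 114 and 101 FPKM in the mM-CSF, sM-CSF and control libraries, and Psmg4 at 44.9, 25.99 and 19.1 FPKM. Of 5 further cap components Sem1, a small lid subunit gene, was higher, at 201, 119 and 98.1 FPKM. Rps27a, which encodes ubiquitin fused to a ribosomal protein, was higher, at 1343, 730 and 527 FPKM. Pomp, Psmg4, Sem1 and Rps27a had differences of 1.01, 1.19, 1.03 and 1.35, which were 0.05, 0.13, -0.04 and 0.38 once the length trend was subtracted. Of 3 inducible catalytic genes, Psmb8 and Psmb10 were higher, with differences of 1.04 and 1.19, and Psmb9 had 0.53. Once the length trend was subtracted these were 0.37, 0.56 and -0.40, short of 2-fold. None of 5 activator and inhibitor genes was called. The activator genes Psme1 and Psme2 differed by 0.91 and 0.88 (0.07 and -0.01 with the trend removed), and Psme4 by -0.83 (0.08).

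Among 12 shuttle and p97 genes 2 were called lower and 0 higher, and among 9 regulators 1 and 0, shares near the 15.1% of all genes called lower. Ddi2, the protease that releases Nfe2l1 for the control of proteasome genes, was at 4.12 FPKM in the mM-CSF, 18.2 in the sM-CSF and 32.0 in the control library. The levels of the 3 libraries were well apart, and its share of counts was 7.75-fold lower in the mM-CSF library than in the control (6.44 to 9.40), a difference of -2.69 that was -2.36 with the length trend removed. The counts of Ddi2 were not whole, and it overlaps Rsc1a1, so its values are uncertain. With the counts of both summed, the share was 3.71-fold lower (3.26 to 4.23). Between the sM-CSF and control libraries it was 1.75-fold lower for Ddi2 (1.58 to 1.94).

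Nfe2l2, a stress response factor that binds the antioxidant response element, was at 24.6, 35.7 and 60.0 FPKM in the mM-CSF, sM-CSF and control libraries, and was the 1 lower gene of 9 regulators in the mM-CSF library relative to the control (-1.25, and -1.32 with the length trend removed). Nfe2l1 itself was at 30.7, 34.9 and 38.0 FPKM, a difference of -0.30 to the control (0.20 with the trend removed). Ubqln2 was the other shuttle gene called lower, at 8.76, 16.1 and 21.0 FPKM (-1.17, and -0.91 with the trend removed). Of 25 E1 and E2 enzyme genes Uba6 was lower, at 1.91, 4.83 and 7.20 FPKM (-1.49, and -0.76). In sM-CSF over control no gene of these pathway lists was called, against 0.785% of all genes higher and 1.63% lower. In mM-CSF over sM-CSF Psmg1, Ube2c and Ube2s were higher (1.08, 1.03 and 1.01) and Ddi2 was lower (-1.91), against 3.79% of all genes higher and 8.73% lower. Ube2c and Ube2s serve the ubiquitin ligase of mitosis, and their differences were 0.39 each with the length trend removed, against 0.47 for Psmg1 and -1.63 for Ddi2.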

How the data were processed

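RNA was sequenced on a BGISEQ-500 instrument per the labels, and Bowtie2 (version 2.2.5) and RSEM are named in the submitters' processing notes, without a role. The genome build and annotation are not given in the sources used here. Per the file headers, the authors deposited expected counts and FPKM for each NCBI gene ID, with its length. Symbols came from a RefSeq table of GRCm38.p6 (17561 of 17615 genes). Genes not listed in a library were taken as 0.

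Differences are of log2(FPKM + 1), which understates the change of low genes. Ratios are of shares of expected counts rounded to whole numbers, with exact conditional (Clopper-Pearson) 95% intervals. Calls need 2-fold and 5 FPKM in the higher library. The length trend is the median difference in 20 equal-sized length bins of genes with 5 FPKM, interpolated on log2 length. TMM factors came from edgeR (version 4.0.16), used for scaling only, and other steps from Python (version 3.11.15) with scipy (version 1.17.1). The steps were tested on simulated data.

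The members and lists were chosen with earlier results of these data known. Named were the catalytic genes, the highest and the extreme members of each role, all members called or near the minimum, and pathway genes that passed the size rule, or otherwise the 2 with the largest difference. The promoter motifs, the genes of equal length, Psmd1, Psmd7, Psmd14, Nfe2l1, Rsc1a1 and the single marker genes were chosen after values were seen. So was the grouping of Psmb11 and the assembly chaperones outside core and cap. Precision follows the library totals of 8.57e+06 to 9.09e+06 counts. The summary of 1 pathway list is not reported here.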

Additional observations from a re-analysis of the deposited data

How the results depend on the processing

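No paired analysis was possible because each group has 1 library, and for the same reason no replicate could be left out. Between the mM-CSF and control libraries, the 7 members called higher became 8 with median-of-ratios, 9 with TMM and 0 in TPM. They became 23 at 1.5-fold, 0 with the length trend removed and 2 with the trend removed at 1.5-fold (the last setting chosen after the data were seen). The shares of all genes higher were 8.97% as deposited, 21.6% at 1.5-fold, 3.01% with the trend removed and 11.1% with the trend removed at 1.5-fold. The member median of 0.74 was 0.31 in TPM and 0.23 with the trend removed, and the core minus cap difference of 0.23 turned to -0.10. Between the sM-CSF and control libraries, the member median of 0.065 turned to -0.075 in TPM and -0.075 with the trend removed. In mM-CSF over sM-CSF, the 0 members called higher became 1 with a pseudocount of 0.1, 7 with median-of-ratios, 7 with TMM, 23 at 1.5-fold and 2 with the trend removed at 1.5-fold. In this comparison 3.79% of all genes were higher as deposited, 15% at 1.5-fold and 8.35% with the trend removed at 1.5-fold. There the member median of 0.66 was 0.36 in TPM and 0.30 with the trend removed, and the core minus cap difference of 0.19 turned to -0.089. TPM, TMM and median-of-ratios apply 1 factor to each library. The share of all genes called was not computed under these scalings or with the pseudocount of 0.1, so those counts have no background. In TPM the median of all genes shifted by -0.45 for mM-CSF over control and by -0.31 for mM-CSF over sM-CSF. The cause of the length trend was not tested. Depth limits the counting intervals of low members such as Psmc3ip and Psmb11.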
